A study of Mus musculus with 6 samples.

Results

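The genes described here are 40 genes of the lysosome, chosen by name from the 24346 genes of the deposited expression table: 13 cathepsins and other proteases, 10 glycosidases, 8 lipid hydrolases with their activators and lipid-transfer proteins, 7 membrane proteins, and the pair of *Grn* and *Tfeb*. The table covers whole livers of 6 male C57/BL6 mice, 8 weeks old, taken 24 hours after an intraperitoneal dose of CCl4 (0.6 μl per g body weight, in sunflower oil). The 3 controls, labelled wt, carried floxed med23 (med23f/f), and the 3 mice labelled med23 ko (med23Δli) carried the floxed allele with Albumin-cre. CCl4 becomes toxic when enzymes of hepatocytes turn it into a radical, and all 6 mice received it, so no liver here was uninjured. Albumin-cre acts in hepatocytes, and the macrophages, endothelial cells and stellate cells of the same liver are not its targets.

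The lysosome is the acidic compartment in which cells break down proteins, glycans, lipids and worn-out organelles delivered by endocytosis and autophagy. Its proteases are led by the cathepsins, its glycosidases and lipid hydrolases trim glycoproteins, glycolipids and stored lipids, and its membrane proteins form a glycan coat, pump protons and carry ions and breakdown products. In the liver it is prominent in hepatocytes and in Kupffer cells, the resident macrophages that clear debris after injury. Values from whole liver sum over these cells, and fewer cells of a type and less RNA per cell cannot be told apart.

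Values are FPKM, fragments scaled to transcript length and to the mapped fragments of the library, so levels of different genes can be compared per length. FPKM keep no read counts, so the number of reads behind each value and the total of each library cannot be read from the table. In the controls the 10 most abundant genes took 17.1% to 20.3% of all FPKM, and in the livers labelled med23Δli they took 11.9% to 13.7%. *Med23* itself did not separate the groups, at 3.42, 2.97 and 4.14 FPKM in the controls and 3.40, 3.40 and 2.91 FPKM in the other livers (adjusted p = 0.685, limma), so the livers are named by their labels and every direction rests on those labels.

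Lysosomal genes moved in both directions between med23f/f livers and livers labelled med23Δli at the same time after CCl4. On the log2(FPKM + 0.1) scale, 8 of the 40 members rose and 3 fell at an adjusted p under 0.05 (limma, Benjamini-Hochberg adjustment over the 11956 genes tested). Those that rose were *Atp6v0d2*, *Npc1*, *Mcoln1*, *Ctsd*, *Ctsa*, *Asah1*, *Ctsf* and *Grn*, and those that fell were *Lgmn*, *Manba* and *Gusb*. In all, 27.5% of the members passed, against 21.1% of all genes tested (11.6% higher and 9.48% lower). The members that rose include *Atp6v0d2*, which reached the minimum level for testing only through the livers labelled med23Δli, so this share and the count of membrane proteins that rose are given as a description only. With each library centred on its median the split was 8 higher and 6 lower (1356 and 1250 of all genes tested), and with quantile normalization it was 7 and 5 (1301 and 1351). The median log2 fold change of the members was 0.13, within a range of −1.05 to 2.19, against a median of 0.024 over all genes tested. Of the members, 22 had a positive log2 fold change and 18 a negative one.

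By role, 3 of 13 proteases rose and 1 fell, 0 of 10 glycosidases rose and 2 fell, 2 of 8 lipid genes rose and 0 fell, and 2 of 7 membrane proteins rose and 0 fell. Over all genes tested, 11.6% were higher and 9.48% lower, and differences between the roles were not tested. At an unadjusted p under 0.05 in limma, 0 glycosidases were higher, 1 lipid gene was lower and 0 membrane proteins were lower. Median log2 fold changes were 0.00085 for the proteases, −0.083 for the glycosidases, 0.12 for the lipid genes and 0.43 for the membrane proteins. A change of more than 2-fold that passed was seen in *Atp6v0d2* and *Npc1* upwards and in *Lgmn* downwards, against 4.45% and 3.45% of all genes tested (7.9% in either direction). The change of *Atp6v0d2* was under 2-fold with a pseudocount of 1, and its call adds nothing to that comparison.

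These counts moved when 1 liver was left out, and such fits use fewer livers. Without med23Δli replicate 1, 0 members were higher and 1 was lower at an adjusted p under 0.05 (limma), and the counts over all genes tested went from 1384 higher and 1133 lower to 401 and 349. The members gave 1 higher and 1 lower without med23Δli replicate 2 (487 and 442 of all genes tested), and 2 and 1 without med23Δli replicate 3 (578 and 412). Leaving out control replicate 1 gave 5 and 2 (1125 and 811 of all genes tested), control replicate 2 gave 6 and 2 (1046 and 749), and control replicate 3 gave 11 and 3 (1750 and 1429). *Lgmn* was the member that passed with each of the 6 libraries left out in turn.

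**Figure D1:**
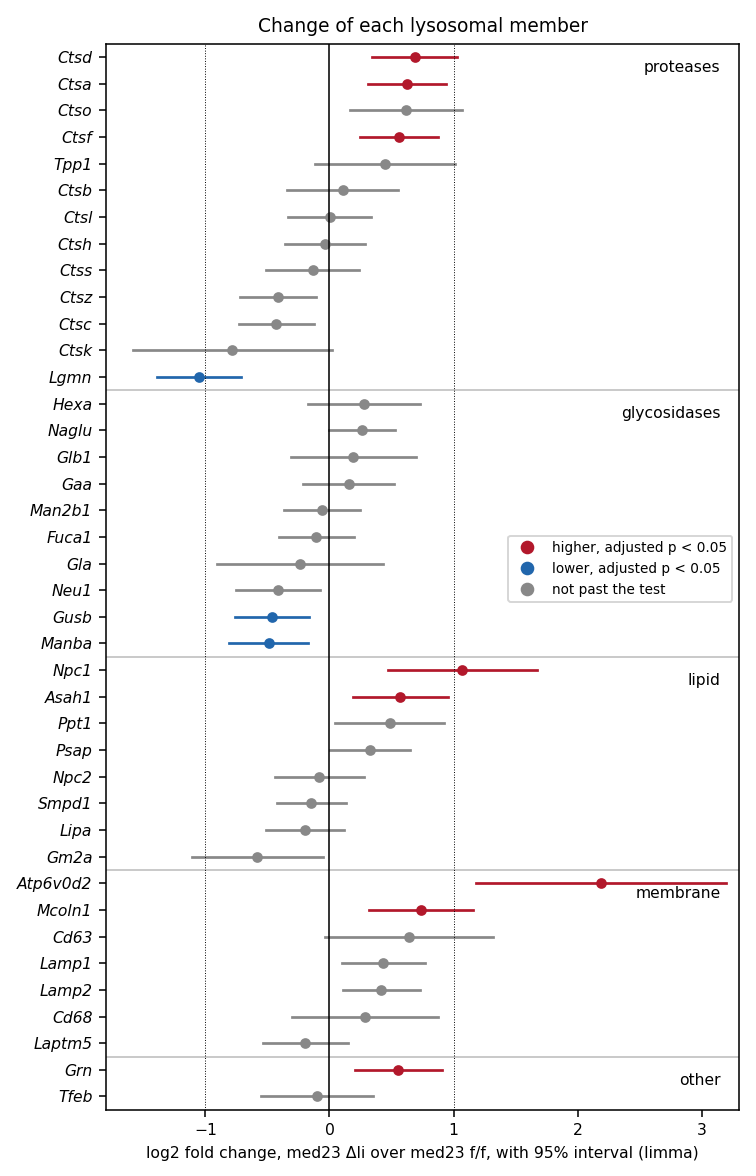
Log2 fold change of each of the 40 members (livers labelled med23Δli over med23f/f, limma on log2(FPKM + 0.1)) with its 95% interval, grouped by role; dotted lines mark a 2-fold change. Red points passed upwards (8 members) and blue points passed downwards (3 members). The glycosidases hold no red point, where 11.6% of all genes tested were higher.

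Among the proteases, the most abundant member did not separate the groups. *Ctsl* encodes cathepsin L, a cysteine protease of broad activity. It had 882, 792 and 965 FPKM in the controls and 864, 958 and 816 FPKM in the livers labelled med23Δli. High and low values occurred in both groups, with a log2 fold change of 0.00085 and a 95% interval of −0.33 to 0.33 (adjusted p = 0.998). Its sign is not fixed, at −0.028 with each library centred on its median.

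*Ctsd*, which encodes cathepsin D, the main aspartic protease of the lysosome, rose. It lies on chromosome 7, minus strand, from 142375911 to 142388038 (mm10). Its values were 273, 285 and 288 FPKM in the controls and 498, 492 and 382 FPKM in the livers labelled med23Δli. The controls lay close together (282 ± 7.71 FPKM, SD, n = 3), all below the lowest liver of the other group (457 ± 65.1 FPKM, SD, n = 3). The log2 fold change was 0.69 with a standard error of 0.15 (adjusted p = 0.0179; 0.0818 without med23Δli replicate 1). In order of mean level among the 40 members, *Ctsd* stood at place 5 in the controls and at place 2 in the livers labelled med23Δli.

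*Ctsa* and *Ctsf* rose by amounts close to that of *Ctsd*. *Ctsa*, on chromosome 2, plus strand, from 164832873 to 164841032, encodes cathepsin A, a carboxypeptidase that also protects β-galactosidase and neuraminidase in a complex. It had 55.2, 51.6 and 61.5 FPKM in the controls and 85.3, 95.6 and 78.6 FPKM in the livers labelled med23Δli. The groups did not overlap, with a log2 fold change of 0.62 and a standard error of 0.14 (adjusted p = 0.0188; 0.0854 without med23Δli replicate 2). Exons of *Ctsa* share bases with *Neurl2* and *Pltp* on the opposite strand, whose reads cannot be told apart without strand; in all, 11 of the 40 members share exonic bases with another annotated gene, among them *Ctsd*, *Ctsl*, *Grn* and *Lamp1*. *Ctsf* encodes cathepsin F, a cysteine protease, and lies on chromosome 19, plus strand, from 4855130 to 4860918. Its levels were lower, at 8.88, 10.4 and 9.40 FPKM in the controls and 13.6, 15.7 and 13.2 FPKM in the livers labelled med23Δli, again with no overlap. For *Ctsf* the log2 fold change was 0.56 with a standard error of 0.13 (adjusted p = 0.0254; 0.108 without med23Δli replicate 2).

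*Lgmn* fell further than any other member. It encodes legumain, an asparaginyl endopeptidase that also processes cathepsins to their mature forms, and lies on chromosome 12, minus strand, from 102394084 to 102439813. Its values were 119, 129.6 and 104 FPKM in the controls and 50.5, 63.6 and 56.0 FPKM in the livers labelled med23Δli. Every liver labelled med23Δli lay far under every control, with means of 117 ± 13 and 56.7 ± 6.56 FPKM (SD, n = 3 each). The log2 fold change was −1.05 with a standard error of 0.15 (adjusted p = 0.00509), and it stayed within −1.13 to −0.97 with each library left out in turn.

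A pair of further cathepsins lay lower without passing the test. *Ctsz*, a carboxypeptidase of the cysteine class, had 350.1, 328 and 338 FPKM in the controls and 256, 279 and 229.6 FPKM in the livers labelled med23Δli. *Ctsc*, the dipeptidyl peptidase that activates granule serine proteases of leukocytes, had 25.8, 29.8 and 28.5 FPKM against 19.4, 22.9 and 20.2 FPKM. In both, all controls lay above all other livers, as in 20.4% of all genes tested. The log2 fold changes were −0.41 (adjusted p = 0.0574) for *Ctsz* and −0.43 (adjusted p = 0.0528) for *Ctsc*. Both passed with each library centred on its median (adjusted p = 0.0386 and 0.0437).

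The remaining proteases did not pass either. *Ctso*, a cysteine cathepsin, had 7.51, 4.62 and 5.75 FPKM in the controls and 8.61, 8.24 and 10.3 FPKM in the livers labelled med23Δli, with separate groups and a log2 fold change of 0.62 (adjusted p = 0.0588; 0.0314 without control replicate 1 and 0.177 without med23Δli replicate 3). *Tpp1*, a tripeptidyl peptidase, had 38.3, 20.7 and 38.9 FPKM against 43.4, 46.7 and 38.8 FPKM, and control replicate 2 lay far under the other 5 libraries. Its log2 fold change was 0.45 (adjusted p = 0.217), and 0.15 without that library. *Ctsb* (cathepsin B), *Ctsh* (cathepsin H) and *Ctss* (cathepsin S, which trims the invariant chain in antigen-presenting cells) had log2 fold changes of 0.11, −0.037 and −0.14, each with overlapping groups. The sign of *Ctsb* was negative with quantile normalization (−0.0065). *Ctsk*, the collagenase of osteoclasts, lay between 0.739 and 1.70 FPKM in the controls and between 0.501 and 0.897 FPKM in the livers labelled med23Δli (log2 fold change −0.78, adjusted p = 0.140; 0.0497 without control replicate 2 and 0.324 without med23Δli replicate 3). Summed over the 13 proteases, levels were 1968 to 2225 FPKM in the controls and 1969 to 2372 FPKM in the livers labelled med23Δli.

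**Figure D2:**
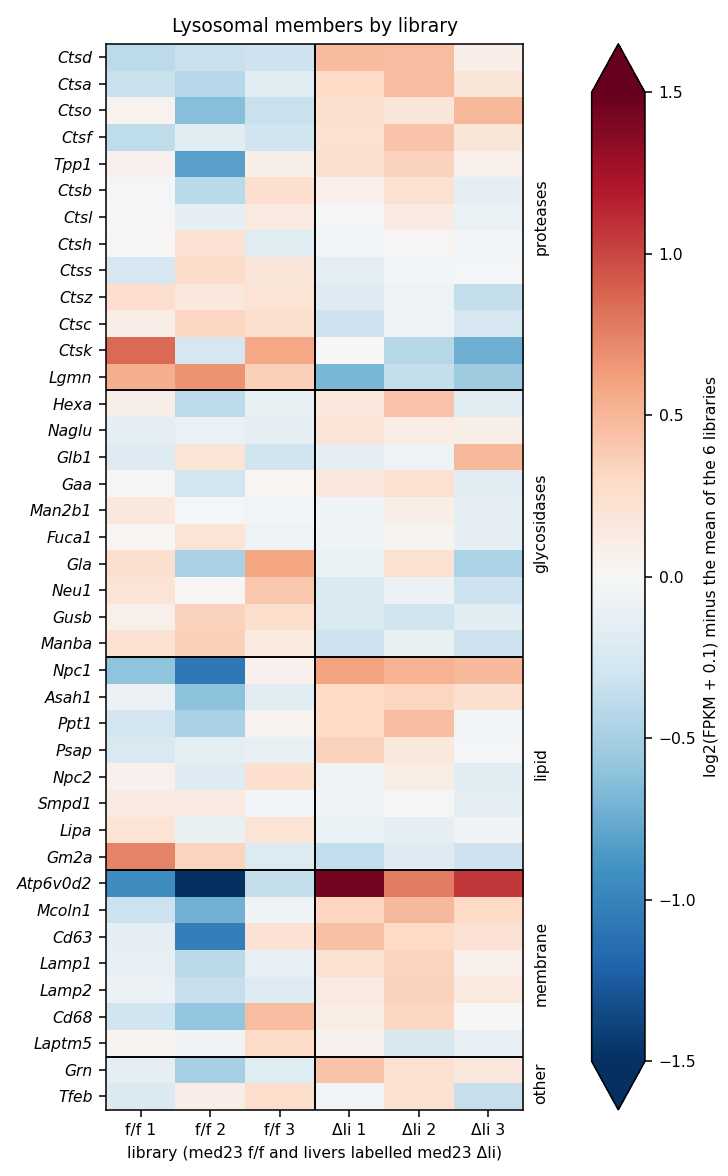
Log2(FPKM + 0.1) of each member in each library minus its mean over the 6 libraries, with rows grouped by role; f/f is med23f/f and Δli the livers labelled med23Δli. Lgmn is lower in all 3 livers labelled med23Δli than in any control, Ctsd is higher in all 3, and control replicate 2 is the lowest control in 24 of the 40 rows.

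The glycosidases had 2 members that fell. *Gusb* encodes β-glucuronidase, which removes glucuronic acid from glycosaminoglycans, and lies on chromosome 5, minus strand, from 129989011 to 130003049. Its values were 19.6, 23.8 and 22.4 FPKM in the controls and 15.9, 15.1 and 16.6 FPKM in the livers labelled med23Δli. *Manba* encodes β-mannosidase, which acts late in the breakdown of N-glycans, and lies on chromosome 3, plus strand, from 135485611 to 135571404. Levels of *Manba* were 6.63, 7.27 and 6.26 FPKM in the controls and 4.52, 5.21 and 4.53 FPKM in the livers labelled med23Δli. Neither gene had overlapping groups. The log2 fold change was −0.46 with a standard error of 0.13 for *Gusb* (adjusted p = 0.0405; 0.147 without med23Δli replicate 2). That of *Manba* was −0.49 with a standard error of 0.14 (adjusted p = 0.0401; 0.153 without med23Δli replicate 1).

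*Neu1*, the sialidase that works in the complex with cathepsin A, had 21.7, 19.0 and 25.1 FPKM in the controls and 16.2, 17.7 and 15.2 FPKM in the livers labelled med23Δli. All 3 of the latter lay under the controls, and the log2 fold change was −0.42 (adjusted p = 0.0771; 0.0466 with each library centred on its median). *Naglu*, which acts on heparan sulphate, lay in the other direction, at 13.8, 14.2 and 13.7 FPKM against 17.5, 16.4 and 16.2 FPKM. Its groups were separate but the difference was small, 0.26 on the log2 scale (adjusted p = 0.140).

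In the other 6 glycosidases the groups overlapped. *Gaa* (acid α-glucosidase, which degrades glycogen) had a log2 fold change of 0.16, *Hexa* (a hexosaminidase subunit) of 0.28, *Glb1* (β-galactosidase) of 0.19, *Gla* (α-galactosidase A) of −0.24, *Fuca1* (α-fucosidase) of −0.11 and *Man2b1* (α-mannosidase) of −0.060. Their 95% intervals all contained 0, and the widest was that of *Gla*, at −0.90 to 0.43. The signs of *Gla*, *Glb1* and *Man2b1* turned when single libraries were left out. Summed over the 10 genes, the glycosidases held 190.4 to 215 FPKM in the controls and 181 to 226 FPKM in the livers labelled med23Δli.

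Among the genes of lipid breakdown and transfer, *Npc1* had the largest change. It encodes the membrane protein that passes cholesterol from the lysosome to other membranes. Its values were 21.4, 15.4 and 34.1 FPKM in the controls and 49.2, 46.6 and 45.5 FPKM in the livers labelled med23Δli. The livers labelled med23Δli lay close together (47.1 ± 1.92 FPKM, SD, n = 3), whereas the controls spread widely below them (23.6 ± 9.53 FPKM, SD, n = 3). The log2 fold change was 1.07 with a standard error of 0.26 (adjusted p = 0.0265; 0.0894 without med23Δli replicate 1), and 0.80 to 1.37 with each library left out in turn. Exons of *Npc1* share bases with *Rmc1* on the opposite strand. *Npc2*, its soluble partner in the lumen, had overlapping groups at 29.6, 24.6 and 33.6 FPKM against 26.8, 30.6 and 25.2 FPKM (log2 fold change −0.081, adjusted p = 0.734).

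*Asah1* encodes acid ceramidase, which splits ceramide into sphingosine and a fatty acid, and lies on chromosome 8, minus strand, from 41340197 to 41374773. Levels of *Asah1* were 20.1, 13.8 and 19.1 FPKM in the controls and 26.1, 26.7 and 25.2 FPKM in the livers labelled med23Δli. The groups were separate, and the gene rose with a log2 fold change of 0.57 and a standard error of 0.16 (adjusted p = 0.0444; 0.135 without med23Δli replicate 2). *Smpd1*, the acid sphingomyelinase that makes ceramide, had 29.1, 29.2 and 25.8 FPKM against 25.4, 26.3 and 24.2 FPKM, a log2 fold change of −0.15 (adjusted p = 0.408).

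The saposin precursor and the GM2 activator, which present lipids to the hydrolases, lay in opposite directions. *Psap* had 275, 289 and 298 FPKM in the controls and 407, 358 and 319 FPKM in the livers labelled med23Δli, with no overlap and a log2 fold change of 0.32 (adjusted p = 0.130). *Gm2a* had 20.7, 15.5 and 10.7 FPKM against 9.52, 10.8 and 9.93 FPKM, and control replicate 3 reached into the other group. Its log2 fold change was −0.58 (adjusted p = 0.105), −0.83 without control replicate 3 (adjusted p = 0.0128) and −0.36 without control replicate 1 (adjusted p = 0.225). *Ppt1*, a palmitoyl-protein thioesterase, lay higher by 0.49 on the log2 scale (adjusted p = 0.105; 0.0404 without control replicate 3 and 0.295 without med23Δli replicate 2). *Lipa*, the acid lipase of cholesteryl esters and triglycerides, stood at −0.20 on that scale (adjusted p = 0.316).

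**Figure D3:**
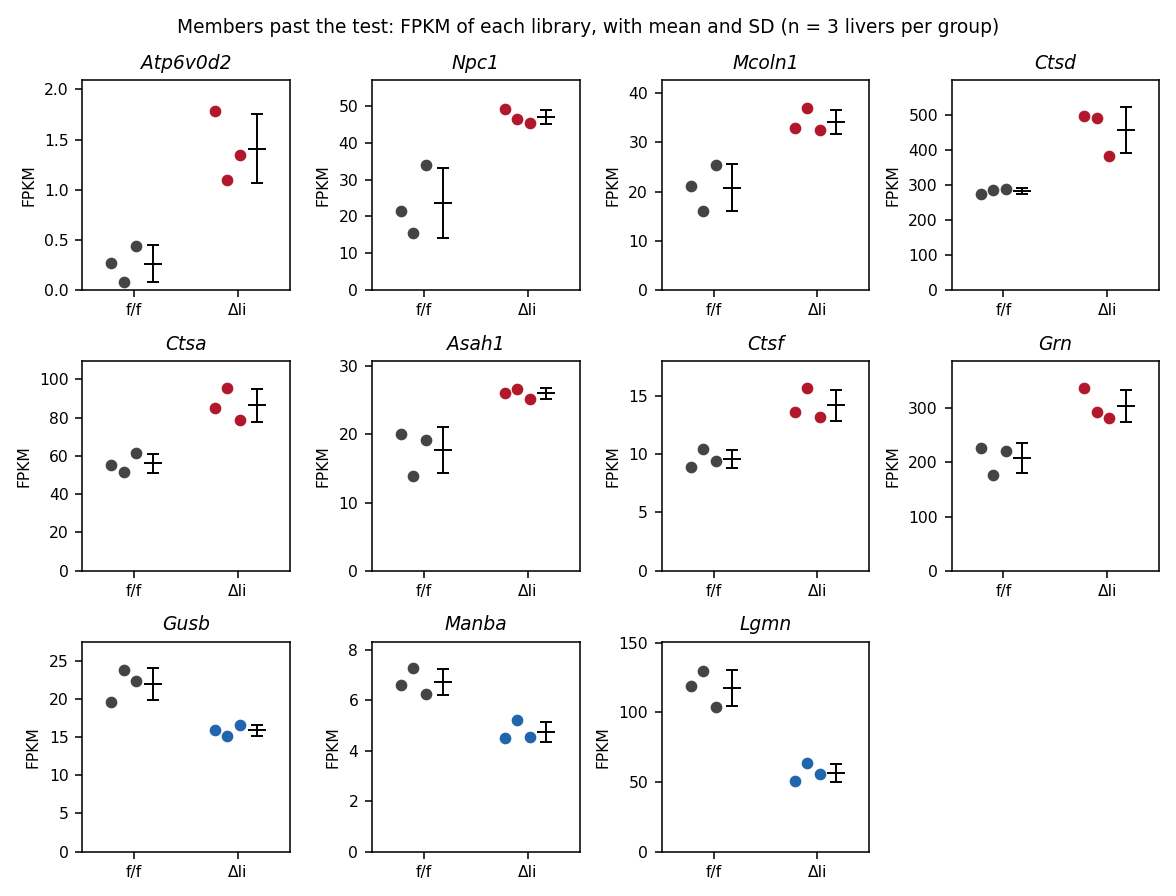
FPKM of each library (points) with the mean and SD (bars, n = 3 livers per group) for the 11 members at an adjusted p under 0.05; f/f is med23f/f and Δli the livers labelled med23Δli. In each panel the 3 livers of either group lie apart, and in Npc1 and Asah1 the control values spread more widely than those of the other group.

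Of the 7 membrane proteins, 6 had a positive log2 fold change and 2 rose. *Mcoln1* encodes TRPML1, the calcium channel of the lysosomal membrane, and lies on chromosome 8, plus strand, from 3500457 to 3515232. Levels of *Mcoln1* were 21, 16 and 25.4 FPKM in the controls and 33.0, 37.0 and 32.6 FPKM in the livers labelled med23Δli. The groups were separate, with a log2 fold change of 0.74 and a standard error of 0.18 (adjusted p = 0.0274; 0.10 without med23Δli replicate 2). *Atp6v0d2*, on chromosome 4, minus strand, from 19876841 to 19922605, encodes a subunit of the proton pump that is known from osteoclasts and macrophages. Its control levels were the lowest of all members, at 0.265, 0.0757 and 0.441 FPKM, and those of the livers labelled med23Δli were 1.78, 1.1 and 1.34 FPKM, all higher. On the log2 scale the rise was 2.19 with a standard error of 0.44 (adjusted p = 0.0145; 0.0654 without med23Δli replicate 1). That size depends on the pseudocount, at 0.93 with 1 and 2.66 with 0.01 in place of 0.1. *Atp6v0d2* passed the minimum of 0.5 FPKM for the mean of the 6 libraries only through the livers labelled med23Δli. With a minimum of 1 FPKM, which leaves it and *Ctsk* out, 7 members were higher and 3 lower.

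The abundant glycoproteins of the membrane lay higher without passing. *Lamp1*, a main part of the glycan coat, had 291, 238 and 289 FPKM in the controls and 371, 397 and 333 FPKM in the livers labelled med23Δli. *Lamp2*, its relative that also takes part in autophagy, had 172, 144 and 161 FPKM against 201, 233 and 203 FPKM. The log2 fold changes were 0.43 for *Lamp1* (adjusted p = 0.0668) and 0.42 for *Lamp2* (adjusted p = 0.0612), each with separate groups, as in 23.3% of all genes tested in this direction. *Cd63*, a tetraspanin of late endosomes and lysosomes, had 331, 177 and 423 FPKM in the controls and 493, 448 and 424 FPKM in the livers labelled med23Δli. Control values spread widely, and the lowest liver labelled med23Δli lay just above control replicate 3. The log2 fold change of *Cd63* was 0.64 (adjusted p = 0.151), 0.91 without control replicate 3 (adjusted p = 0.0393) and 0.28 without control replicate 2 (adjusted p = 0.264).

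Of the membrane proteins known from macrophages and other leukocytes, *Cd68* and *Laptm5* had overlapping groups, unlike *Atp6v0d2* above. *Cd68*, a macrophage glycoprotein, had 64.4, 52.7 and 109 FPKM in the controls and 86.0, 98.1 and 79.6 FPKM in the livers labelled med23Δli. Control replicate 3 was the highest of the 6 libraries, and the log2 fold change was 0.29 (adjusted p = 0.443), 0.59 without it (adjusted p = 0.0329) and 0.063 without control replicate 2 (adjusted p = 0.878). *Laptm5*, a membrane protein of blood cell lineages, had 11.8, 11.1 and 14.0 FPKM against 12, 9.67 and 10.5 FPKM, a log2 fold change of −0.19 (adjusted p = 0.374).

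*Grn* encodes progranulin, a secreted protein that is taken to the lysosome and cut into granulins. It lies on chromosome 11, plus strand, from 102430315 to 102437048. Its values were 226, 177 and 221 FPKM in the controls and 338, 294 and 283 FPKM in the livers labelled med23Δli, with separate groups. It rose by 0.55 on the log2 scale with a standard error of 0.15 (adjusted p = 0.0374; 0.144 without med23Δli replicate 1). *Tfeb* encodes the transcription factor that drives lysosomal genes when it enters the nucleus. Its transcript had 4.91, 6.15 and 6.89 FPKM in the controls and 5.56, 6.72 and 4.49 FPKM in the livers labelled med23Δli. These values overlapped, with a log2 fold change of −0.10 and a 95% interval of −0.55 to 0.35 (adjusted p = 0.736).

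**Figure D4:**
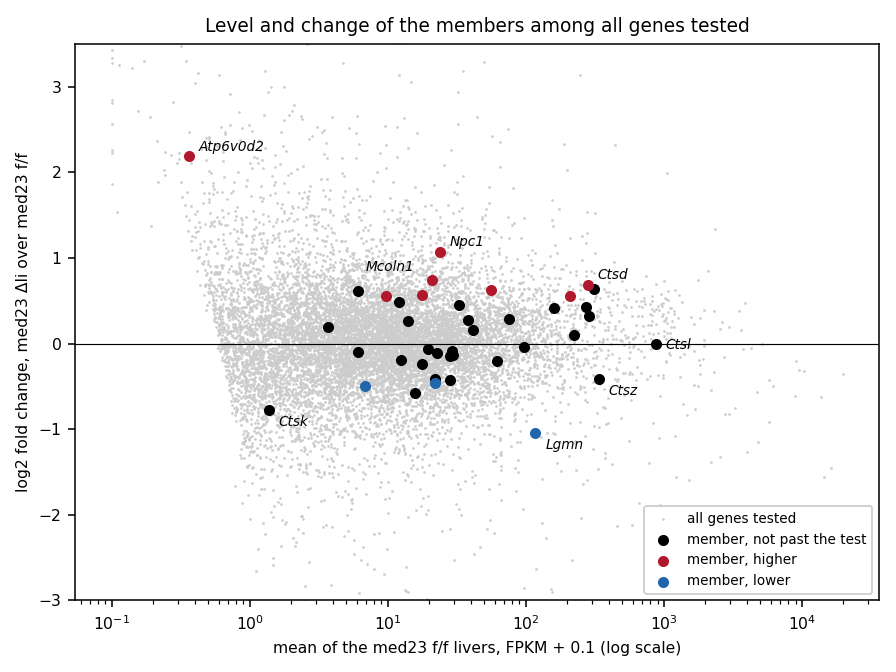
Log2 fold change of all genes tested (grey) against the mean FPKM + 0.1 of the med23f/f livers on a log scale, with the 40 members on top (black, not past the test; red, higher; blue, lower); 42 genes lie outside the vertical range. Ctsl, the most abundant member, sits on the line of no change, and Atp6v0d2 stands apart at the low end.

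TFEB and its relatives bind the CLEAR element, here GTCACGTG followed by AC, in the promoters of many lysosomal genes. RefSeq promoters (GRCm38.p6, the assembly of mm10, 250 bases before to 50 after each annotated start) were read for 35 of the 40 members, without *Asah1*, *Atp6v0d2*, *Ctsb*, *Ctsh* and *Npc1*. Both strands were searched for the whole element, for its first 8 bases, GTCACGTG, and for its centre, CACGTG, and each shorter motif lies within the longer. The whole element was in 0 of the 35 members and in 0.37% of all 27025 genes with a promoter. The 8 bases were in 8 of the 35 members (22.9%), against 2.55% of all genes with a promoter and 4.95% of those also tested for expression. CACGTG was in 11 members (31.4%), against 8.09% and 12.1%. The element is known from lysosomal genes, so an excess among members chosen as lysosomal was likely in advance and says nothing of these livers. The motifs were also chosen with earlier results of these data known. Of the members with a promoter, the 8 bases were in 3 of the 5 that rose (*Ctsa*, *Ctsd* and *Mcoln1*), in 1 of the 3 that fell (*Lgmn*) and in 4 of the 27 that did not pass (*Gla*, *Glb1*, *Lamp1* and *Naglu*). This split was not tested. Windows of 30 bases with each match are given on the strand of the gene, 5′ to 3′, with the 8 matching bases in capitals, to show the match in genes that rose, fell and did not pass. Where the capitals begin with C, the match is on the other strand.
Ctsa, upstream match (chr2:164833748-164833777, plus strand): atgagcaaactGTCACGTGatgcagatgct
Ctsa, downstream match (chr2:164833767-164833796, plus strand): atgcagatgctCACGTGACcagagctacac
Ctsd, upstream match (chr7:142388048-142388077, minus strand): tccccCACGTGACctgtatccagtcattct
Ctsd, downstream match (chr7:142387907-142387936, minus strand): cgcccgcgtctCACGTGACccgttgagggc
Mcoln1, upstream match (chr8:3500435-3500464, plus strand): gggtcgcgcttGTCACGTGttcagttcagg
Mcoln1, downstream match (chr8:3500463-3500492, plus strand): ggcgccccgctCACGTGACcgcggcgcatg
Lgmn (chr12:102439125-102439154, minus strand): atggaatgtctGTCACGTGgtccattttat
Lamp1 (chr8:13159122-13159151, plus strand): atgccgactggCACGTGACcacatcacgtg
Naglu (chr11:101070008-101070037, plus strand): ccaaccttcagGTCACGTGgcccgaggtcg
Gla (chrX:134601183-134601212, minus strand): gtgagatctcgGTCACGTGagcaactctcg
Glb1 (chr9:114401017-114401046, plus strand): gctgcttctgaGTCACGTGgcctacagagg

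*Ctsa*, *Ctsd* and *Mcoln1* each held a pair of matches, and the other 5 held 1 each. RefSeq gives *Ctsa* and *Lgmn* 2 starts each, and their matches lie at only 1 of these, the one farther into the gene. A match is a run of letters, and binding was not measured in these livers.

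Libraries of a group differed in ways that members shared. Of the 3 controls, replicate 2 was the lowest for 24 of the 40 members (39.9% of all genes tested) and replicate 3 the highest for 19 (35.0%). Of the livers labelled med23Δli, replicate 3 was the lowest for 27 members (48.8%) and replicate 2 the highest for 26 (42.3%). The median coefficient of variation of the members was 13.4% in the controls and 9.32% in the livers labelled med23Δli, against 17.8% and 10.3% over all genes tested. The widest control spreads were those of *Atp6v0d2* (70.1%), *Npc1* (40.3%), *Cd63* (40%) and *Cd68* (39.5%), and the narrowest those of *Naglu* (1.96%) and *Ctsd* (2.73%). Together the members took up 0.613%, 0.527% and 0.698% of all FPKM in the controls and 0.749%, 0.721% and 0.682% in the livers labelled med23Δli, so this share overlapped between the groups.

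Other genes of the lysosome and of the routes into it were read from 7 lists, chosen with earlier results of these data known. Of 32 further hydrolases tested, 6 rose and 1 fell, with a median log2 fold change of 0.042, against 11.6% higher and 9.48% lower over all genes tested. The number higher was 3 without med23Δli replicate 1 and 3 without med23Δli replicate 2. *Hyal1*, a hyaluronidase, rose from 10.9 ± 4.00 to 38.9 ± 6.95 FPKM (SD, n = 3 each), or by 1.89 on the log2 scale (adjusted p = 0.00686). *Arsa*, the sulphatase of sulphatides, rose from 23.0 ± 5.32 to 55.8 ± 5.56 FPKM, or by 1.29 on the log2 scale (adjusted p = 0.00499). *Scpep1*, a serine carboxypeptidase, rose by 1.25 on that scale (adjusted p = 0.0116). For *Ctse*, cathepsin E, it was 1.64 (adjusted p = 0.0474), but the groups overlapped. *Acp5*, the tartrate-resistant acid phosphatase of osteoclasts and macrophages, was the gene of this list that fell (named after its values were seen), from 81.6 ± 10.9 to 43.4 ± 2.69 FPKM, a log2 fold change of −0.90 (adjusted p = 0.00711).

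Of 23 further membrane proteins tested, 8 rose and 0 fell (median 0.19; 0 lower at an unadjusted p under 0.05 in limma). The number higher was 2, 3 and 4 without med23Δli replicates 1, 2 and 3 in turn, and 1 was lower without control replicate 2. *Gpnmb*, a glycoprotein of macrophage lysosomes, had a log2 fold change of 2.33, *Ctns* (the cystine exporter) of 1.45, *Clcn7* (the chloride and proton exchanger) of 1.35 and *Slc38a9* (the arginine sensor of mTORC1) of 1.00. For the V-ATPase, the proton pump, 2 of 17 subunits rose, *Atp6v1h* (0.88) and *Atp6v0d1* (0.46, the ubiquitous relative of *Atp6v0d2*), a share of 11.8% that is close to the 11.6% of all genes tested. Of the 17 subunits 15 had a positive log2 fold change, and 0 were higher when any 1 of the 3 livers labelled med23Δli was left out, 1 without control replicate 1 or 2 and 4 without control replicate 3. *Atp6v0d1* had 76.9 ± 4.05 FPKM in the controls and 106 ± 4.71 FPKM in the livers labelled med23Δli (SD, n = 3 each), a level far above that of *Atp6v0d2*. Of 18 genes listed under delivery to the lysosome, 2 rose, *Igf2r* (a mannose 6-phosphate receptor, 0.74) and *Sumf1* (0.52), a share of 11.1%. *Sumf1* encodes the activator of sulphatases rather than a carrier. In this list 0 were higher when any 1 of the livers labelled med23Δli or control replicate 2 was left out, and 1 without control replicate 1.

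The list of protease inhibitors had 4 of its 10 genes above the minimum, of which 2 rose, and the count was 2 with each library left out in turn. Over all genes tested, 11.6% were higher. *Cstb*, cystatin B, which blocks cysteine cathepsins, had 315, 240.5 and 402 FPKM in the controls and 909.8, 906 and 878 FPKM in the livers labelled med23Δli. These values lie far apart, 1.52 on the log2 scale (adjusted p = 0.00373). *Serpinb6a*, a serine protease inhibitor of the cytosol, rose from 11.6 ± 0.563 to 68.0 ± 11.3 FPKM, a log2 fold change of 2.53 (adjusted p = 0.000322).

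Of 20 genes for relatives of TFEB and for mTORC1 on the lysosome, 3 rose and 2 fell. These counts were 0 and 1 without med23Δli replicate 1 and also without replicate 2, 2 and 1 without replicate 3, and 10 and 3 without control replicate 3. *Mitf*, a relative of *Tfeb*, rose from 1.37 ± 0.561 to 3.52 ± 0.514 FPKM, a log2 fold change of 1.37 (adjusted p = 0.0186). *Mtor*, the kinase of mTORC1, rose as well (0.75), whereas *Mlst8*, another subunit (−0.76), and *Rraga*, a GTPase that brings mTORC1 to the lysosome (−0.75), fell. The autophagy list had 12 of 28 genes that rose and 0 that fell (median 0.53; 0 lower at an unadjusted p under 0.05 in limma). Its largest changes were those of *Epg5*, a tether of autophagosomes (1.44), *Atg14*, a subunit of the lipid kinase complex that starts autophagosomes (1.09), *Map1lc3a*, which coats their membrane (0.88), and *Bnip3l*, a receptor for mitochondria (0.79). The number of autophagy genes that were higher ranged from 2 without med23Δli replicate 1 and 3 without med23Δli replicate 2 to 16 without control replicate 3, with 7 without med23Δli replicate 3. Over the 7 lists, 35 of 142 genes tested rose and 3 fell, against 11.6% and 9.48% of all genes tested. The lists were chosen with earlier results of these data known, so this comparison is a description only. The total that was higher was 9, 11 and 19 without med23Δli replicates 1, 2 and 3 in turn, and 49 without control replicate 3.

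**Figure D5:**
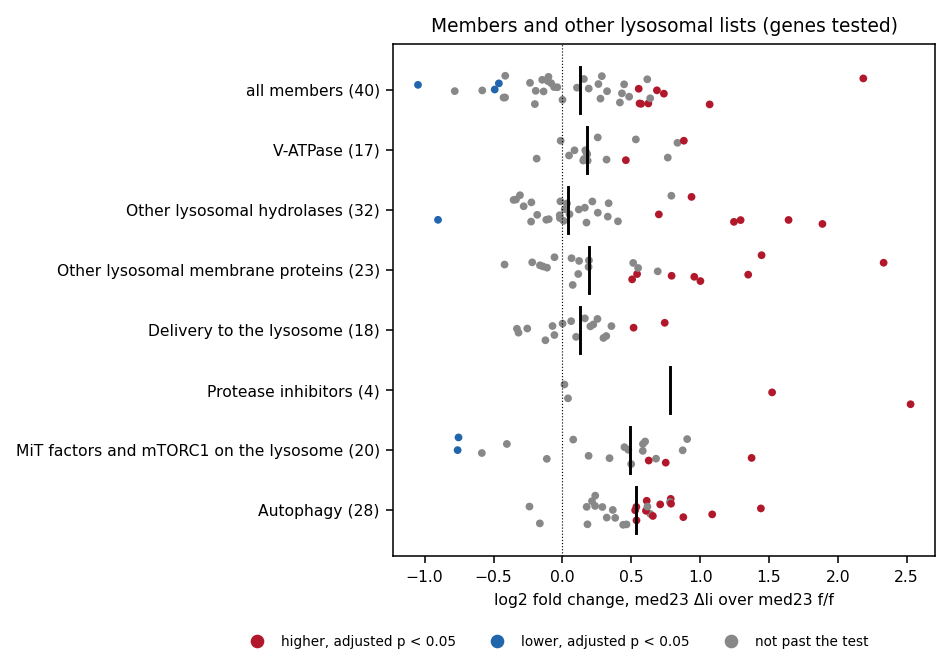
Log2 fold change (livers labelled med23Δli over med23f/f) of the members and of the genes tested in 7 other lists, with 1 point per gene and a bar at each median; red passed upwards and blue downwards. Members lie on both sides of 0, whereas 26 of the 28 autophagy genes lie above it.

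Markers of the cells of the liver were read beside these results. Over all genes tested, 11.6% were higher and 9.48% lower. Of 12 markers of macrophages and Kupffer cells, 0 rose and 1 fell (*C1qa*), with 0 higher and 4 lower at an unadjusted p under 0.05 in limma, 10 of 12 negative and a median log2 fold change of −0.34. Their summed level was 261 to 427 FPKM in the controls and 251 to 271 FPKM in the livers labelled med23Δli. Without control replicate 1, 4 of these markers were lower at an adjusted p under 0.05, and with any 1 of the other 5 libraries left out, 0 were. Of 8 tested markers of monocytes and injury macrophages, 2 rose, *Gpnmb* and *Lgals3*, and the summed level was 182 to 295 FPKM against 413 to 479 FPKM. The median log2 fold change of this list was −0.026, with 4 of 8 negative, and without *Lgals3*, added after seeing the data, the summed level was 138 to 189 FPKM against 158 to 199 FPKM. With any 1 of the livers labelled med23Δli left out, 1 of the 8 was higher. The part of monocytes and injury macrophages in the rises of members was not tested. Of 6 general leukocyte markers 1 fell (*Coro1a*), a call lost without control replicate 2 and with any 1 of the livers labelled med23Δli left out. Of 5 neutrophil markers 0 passed (3 lower at an unadjusted p under 0.05 in limma; 1 lower at an adjusted p under 0.05 without control replicate 1). All 6 lymphocyte markers lay under the minimum.

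All 6 endothelial markers fell (4 to 6 with each library left out in turn), against 9.48% of all genes tested. Their median log2 fold change was −1.04, and their summed level was 81.4 to 119 FPKM in the controls and 43.7 to 46.9 FPKM in the livers labelled med23Δli. None of the macrophage and endothelial markers was at 0 in all libraries of a group. The endothelial markers, and most macrophage markers, lay in the direction of *Lgmn*, *Gusb* and *Manba*, and their part in those falls was not tested. Of 7 stellate cell markers 1 fell (*Des*), a call lost with any 1 library other than control replicate 3 left out. Of 4 cholangiocyte markers 0 passed (0 higher and 0 lower at an unadjusted p under 0.05 in limma). Of 8 hepatocyte markers 0 passed (1 higher and 3 lower at that p; 1 higher and 2 lower at an adjusted p under 0.05 without control replicate 3, and 1 lower without control replicate 2), at a summed level of 22755 to 32058 FPKM in the controls and 19170.1 to 25589 FPKM in the livers labelled med23Δli. Their median log2 fold change was −0.079, with 4 of 8 negative. *Alb* alone averaged 19742 FPKM in the controls, of a mean sum of 28122 FPKM. Of 4 erythroid markers, 3 were negative, and their summed level was 27.5 to 204 FPKM in the controls and 40.5 to 69.4 FPKM in the livers labelled med23Δli. *Hba-a1* was at 18.0, 4.77 and 0.139 FPKM in the livers labelled med23Δli and near 0 in the controls, so it passed the minimum only through the former, and its reads may be split with its near-identical copy *Hba-a2*. The 3 adipocyte markers were listed at 0 in every control and summed to 0, 10.7 and 0.0907 FPKM in the livers labelled med23Δli. Replicate 2, the liver with adipocyte markers, is also the one in which most members were highest within its group, and the part of adipocyte RNA in that was not tested.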

How the data were processed

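RNA of 6 whole livers, 1 library per mouse, was sequenced as paired reads with a kit that does not mark strand. The authors checked reads with FastQC, trimmed adapters, aligned to UCSC mm10 with TopHat and deposited FPKM from Cuffdiff, and versions, annotation and options are not given in the sources used here. The deposited table also holds the authors' group means, fold changes, p-values, q-values and calls, none of which was used. Groups follow the labels. Whole reads could not be recovered from low FPKM values (of 380 low genes, the commonest ratio was shared by 5), so the counts behind a value are not known and the only error is the spread of 3 livers. A typical depth over samples is stated in the study's methods, with no total per library.

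All genes whose mean reached 0.5 FPKM (11956, with all 40 members) were compared as log2(FPKM + 0.1), a scale that understates changes of low genes, with limma 3.58.1 in R 4.3.3 (lmFit, eBayes with a mean-variance trend, two-sided, Benjamini-Hochberg adjustment over all genes tested), which was tested on simulated data. Called genes had an adjusted p under 0.05. An exact permutation test of 3 against 3 livers cannot give a p under 0.1. Alternatives were other pseudocounts, filters, scalings and variance models, the replicate number as a block, and each library left out; counts of the other lists with a library left out and a marker sum without *Lgals3* were added after seeing the data.

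All 40 members are named; from other lists, at most the 4 largest called changes, plus *Acp5*, the single gene of its list that fell. Members, lists and motifs were chosen with earlier results of these data known. Positions are from GENCODE M21, promoters from RefSeq. Python 3.11.15 with pandas 2.3.3 was used for summaries.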

Additional observations from a re-analysis of the deposited data

How the results depend on the processing

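Of 15 alternatives, each changing 1 choice, *Lgmn* alone among the 11 called members passed in every one, and the other 10 lost their call in at least 1. Pseudocounts of 1 and 0.01 and robust eBayes kept the side of the threshold and the direction of all 40 members. With no filter on low values 5 members were higher. With each library centred on its median 6 were lower, and with quantile normalization 5 were lower. A single member was higher by over 2-fold with a pseudocount of 1, no filter, a minimum of 1 FPKM or quantile normalization, in place of 2. *Atp6v0d2* was the member lost with a pseudocount of 1 (log2 fold change 0.93) and with a minimum of 1 FPKM, which leaves it out, and *Npc1* the member lost with no filter (adjusted p = 0.0526) and with quantile normalization (just under 2-fold). For the other counts the cause was not tested.

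With each library left out in turn, members higher ranged from 0 to 11 and lower from 1 to 3, those over 2-fold from 0 to 2 higher and from 0 to 1 lower, and all genes tested from 401 to 1750 higher and from 349 to 1429 lower. These fits use fewer libraries. Signs turned only in members that did not pass. *Ctsl* was at −0.028 with centring and −0.15 with quantile normalization, and *Ctsb* at −0.0065 with quantile normalization. With a library left out, log2 fold changes ran over −0.068 to 0.26 for *Ctsb*, −0.14 to 0.065 for *Ctsh*, −0.073 to 0.070 for *Ctsl*, −0.54 to 0.0028 for *Gla*, −0.0057 to 0.34 for *Glb1*, −0.13 to 0.0041 for *Man2b1*, −0.20 to 0.023 for *Npc2* and −0.24 to 0.045 for *Tfeb*.

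The replicate number as a block left 3 members higher and 1 lower, and 809 and 614 of all genes tested. Same-numbered libraries did not deviate together (correlations of −0.02, −0.05 and −0.12 across genes), and no library correlated best with its own number, so they share only a number. Reads per gene and library totals are not in the table, so no counting error could be given, and values of low genes such as *Atp6v0d2* and *Ctsk* rest on the spread between livers alone.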
